A study of Mus musculus with 8 samples.

Results

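The Schlafen family of the mouse comprises regulators of lymphocyte growth, myeloid cell maturation and antiviral defence, and their genes lie side by side on chromosome 11. Members were taken by name as Slfn1, Slfn2, Slfn3, Slfn4, Slfn5, Slfn8 and Slfn9, matched to Ensembl identifiers through a GRCm38 annotation. These were 7 of 54532 genes in the table, and all 7 passed the filter on low values, with a mean rlog value (the log2-scale level of the deposited table) above 0 in either strain. The data were total RNA of naive, that is untreated, corneas from 4 BALB/c and 4 C57BL/6N samples, taken from male mice without any transgene or agent named in the labels. The question of the study was which genes differ between these inbred strains, which differ in corneal lymphatic vessels. The age of the sequenced mice was not used here, and nothing stated whether the 4 corneas of a strain came from separate mice, so that p-values measure the spread between these samples.

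Schlafen proteins share a conserved N-terminal core with nuclease activity on transfer RNA in several members. Slfn1 and Slfn2 are the short forms that hold little beyond this core, Slfn3 and Slfn4 carry an additional middle domain, and Slfn5, Slfn8 and Slfn9 are long forms that also have a helicase-like C-terminal domain. Many Schlafen genes are induced by type I interferon, which signals through its receptor, the kinases Jak1 and Tyk2 and a transcription factor complex with Irf9 that binds the interferon-stimulated response element of its target genes.

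Promoter sequences are shown because the 7 genes moved in the same direction, and because the response element can be searched for by its letters. The 250 bases before the first RefSeq start listed for each gene were read from RefSeq promoter sequences of build GRCm38.p6, which follow the C57BL/6J genome and not BALB/c. RefSeq starts can differ from the gene bounds given below, which come from the GENCODE annotation. The RefSeq start of Slfn5 lies inside its GENCODE gene, and that of Slfn1 a little before it. All 7 members had an entry. The response element was searched for as GAAANNGAAA on both strands, and the gamma-activated sequence, another element of interferon-responsive promoters, as TTCNNNGAA, which reads the same on both strands. Slfn5, Slfn8 and Slfn9 held a match to GAAANNGAAA, against 2.98% of 32851 promoter windows of the same length, and none of the 7 held a match to TTCNNNGAA, which was found in 7.02% of windows. The promoters of Slfn8 (chr11:83020811-83021060, minus strand) and Slfn9 (chr11:82991831-82992080, minus strand) are printed with the match in capitals, and those of Slfn4 (chr11:83174936-83175185, plus strand) and Slfn2 (chr11:83064862-83065111, plus strand) as the genes with the largest strain differences on the rlog scale, which held no match. For Slfn5 only a stretch of 30 bases around the match is shown (chr11:82951937-82951966, plus strand).
Slfn8: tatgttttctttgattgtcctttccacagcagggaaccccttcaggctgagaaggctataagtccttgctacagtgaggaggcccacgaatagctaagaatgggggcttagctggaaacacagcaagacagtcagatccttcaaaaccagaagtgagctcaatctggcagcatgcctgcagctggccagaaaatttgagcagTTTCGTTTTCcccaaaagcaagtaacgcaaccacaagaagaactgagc
Slfn9: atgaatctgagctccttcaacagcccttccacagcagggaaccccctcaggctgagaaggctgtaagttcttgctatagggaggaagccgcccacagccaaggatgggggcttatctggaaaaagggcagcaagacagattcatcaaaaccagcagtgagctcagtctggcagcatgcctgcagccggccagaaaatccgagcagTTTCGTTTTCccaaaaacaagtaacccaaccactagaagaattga
Slfn5: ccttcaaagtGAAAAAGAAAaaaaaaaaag
Slfn4: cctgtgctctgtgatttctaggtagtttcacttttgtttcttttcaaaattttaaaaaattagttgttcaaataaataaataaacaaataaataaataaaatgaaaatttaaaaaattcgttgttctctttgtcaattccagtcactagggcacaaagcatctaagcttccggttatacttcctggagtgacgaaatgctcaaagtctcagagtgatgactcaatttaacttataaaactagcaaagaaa
Slfn2: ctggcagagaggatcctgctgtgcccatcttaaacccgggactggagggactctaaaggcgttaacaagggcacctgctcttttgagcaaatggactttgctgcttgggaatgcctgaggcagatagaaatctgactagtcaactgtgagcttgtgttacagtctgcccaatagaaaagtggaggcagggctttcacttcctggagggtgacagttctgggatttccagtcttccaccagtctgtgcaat
The matches of Slfn8 and Slfn9 were the same 10 letters, and they began 48 and 45 bases before the RefSeq start. For Slfn8 another RefSeq start is listed downstream, 136 bases from the same match. The longest run shared by these 2 windows was 20 bases, against at most 15 bases for any other pair of members. The match of Slfn5 began 155 bases before its RefSeq start, within the GENCODE gene. A match describes letters only, and its absence from this window says nothing about the factor.

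Recovered reads, obtained by inverting the deposited transformation, summed to 29.7 to 41.2 M per cornea. Values of the members came out within 0.1 of a whole number in 48 of 56 cases, with a largest distance of 0.283. Markers of the corneal epithelium were at a mean rlog value of 16.9 to 17.1 in every cornea, so that the labelled tissue was present throughout. The rlog value is the log2-scale expression value that the authors deposited, shrunken towards a gene's mean where reads are few. BALB/c replicate 2 and C57BL/6N replicates 3 and 4 stood apart by a low mean rlog value of 8 stromal keratocyte markers, at 11.7, 11.2 and 11.1 against 13.2 to 14.0 in the other 5 corneas. BALB/c replicates 1 and 4 stood apart by lens and pigment cell transcripts. Where leaving these corneas out ended the call of a named gene or moved a fold between the strains by more than 1.5 times, both values are given.

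All 7 Schlafen genes had higher values in BALB/c than in C57BL/6N corneas, and in each of them every BALB/c cornea lay above every C57BL/6N cornea. All 7 were called higher by limma, where a call is an adjusted p of at most 0.01. When the limma p-values were recalibrated to an empirical null, 0 of the 7 and 0 of 25402 genes were called. The recalibrated unadjusted p of all 7 was under 0.05, and their recalibrated adjusted p lay between 0.219 and 0.525. Over all 25402 genes tested, 5.74% were called, 2.83% as higher and 2.91% as lower in BALB/c, and 8.75% had all BALB/c values above all C57BL/6N values. The median difference of the 7 genes was 1.51 on the rlog scale, beside 0.01 over all genes tested. In mean normalized reads, that is recovered reads divided by the size factor of the library, the genes were between 2.76-fold (Slfn9) and 27.8-fold (Slfn4) higher in BALB/c. In bulk tissue, more cells that express a gene and more RNA per cell cannot be told apart.

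**Figure D1:**
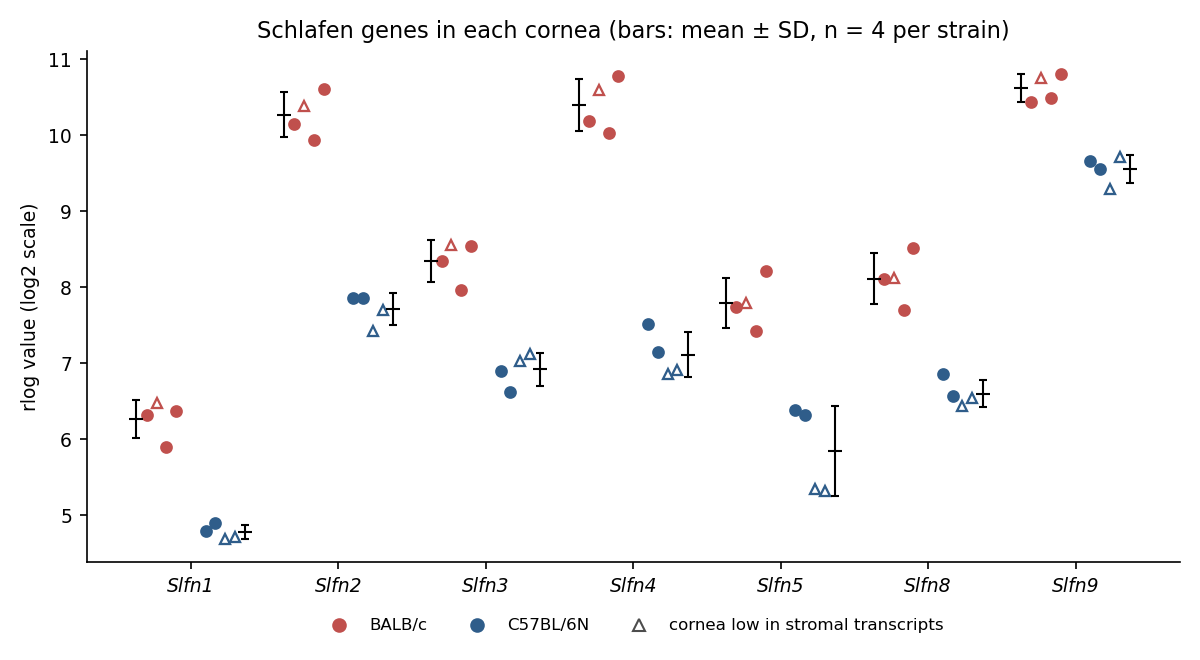
Rlog values (log2 scale, vertical axis) of the 7 Schlafen genes in each of the 4 BALB/c and 4 C57BL/6N corneas, with the mean ± SD of each strain as bars and open triangles for the 3 corneas low in stromal transcripts. The strains do not overlap for any of the genes, and the C57BL/6N values of Slfn5 fall into a pair near 6.3 and a pair near 5.3.

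Of the short forms, Slfn1 (ENSMUSG00000078763, chr11:83116849-83122670, plus strand), described as a growth regulator of thymocytes, was nearly silent in C57BL/6N. Its recovered reads were 162, 193, 87 and 153 in BALB/c replicates 1 to 4 and 6, 10, 1 and 3 in C57BL/6N replicates 1 to 4. All BALB/c corneas were thus far above all C57BL/6N corneas, where the reads summed to 20, with an exact 95% Poisson interval of 12.2 to 30.9 that covers counting error only. The rlog value was 6.27 ± 0.25 (SD, n = 4) in BALB/c and 4.78 ± 0.09 (SD, n = 4) in C57BL/6N, a difference of 1.49 (SE, the standard error of the fit, 0.13, limma adjusted p = 6.31e-05 by Benjamini-Hochberg). Mean normalized reads were 26.2-fold higher in BALB/c, and 15.3-fold higher without the 3 corneas low in stromal transcripts. The rlog difference is much smaller than the log2 ratio of the reads, 4.71, because the transformation shrinks weakly counted genes.

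Slfn2 (ENSMUSG00000072620, chr11:83065112-83070678, plus strand), which keeps T cells and monocytes quiescent, was the most abundant member per exon length in BALB/c. Recovered reads were 1744, 2115, 1308 and 2322 in BALB/c replicates 1 to 4 and 153, 157, 70 and 122 in C57BL/6N replicates 1 to 4. The lowest BALB/c cornea held many times the reads of the highest C57BL/6N cornea. On the rlog scale Slfn2 was at 10.3 ± 0.29 (SD, n = 4) in BALB/c and 7.71 ± 0.21 (SD, n = 4) in C57BL/6N. This difference of 2.56 (SE 0.15, limma adjusted p = 6.1e-06) corresponded to 12.9-fold higher mean normalized reads.

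Among the forms with a middle domain, Slfn4 (ENSMUSG00000000204, chr11:83175186-83190216, plus strand), a gene induced in myeloid cells by interferon, showed the largest rlog difference of the family. Recovered reads were 1880, 2645, 1487 and 2773 in BALB/c replicates 1 to 4 and 115, 74, 36 and 49 in C57BL/6N replicates 1 to 4. Both C57BL/6N corneas low in stromal transcripts had fewer Slfn4 reads than the other two. Rlog values were 10.4 ± 0.35 (SD, n = 4) and 7.11 ± 0.30 (SD, n = 4), and the difference of 3.28 (SE 0.19, limma adjusted p = 4.97e-06) was the 15th highest of all genes tested. Mean normalized reads were 27.8-fold higher in BALB/c.

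Slfn3 (ENSMUSG00000018986, chr11:83191330-83215154, plus strand), known from the differentiation of intestinal epithelium, lies next to Slfn4 and had a much smaller difference. Its recovered reads were 490, 590, 301 and 525 in BALB/c replicates 1 to 4 and 79, 54, 76 and 103 in C57BL/6N replicates 1 to 4. Here the C57BL/6N corneas low in stromal transcripts were not the lowest. The rlog difference was 1.43 (SE 0.15, limma adjusted p = 0.000287), from 8.35 ± 0.27 (SD, n = 4) in BALB/c and 6.92 ± 0.22 (SD, n = 4) in C57BL/6N, and mean normalized reads were 5.09-fold higher. Without the 2 corneas with lens and pigment transcripts the difference was 1.33 with an adjusted p of 0.0159 from limma, above the threshold, in a comparison that called 1.76% of all genes.

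Of the long forms, Slfn5 (ENSMUSG00000054404, chr11:82951349-82964840, plus strand), an interferon-induced member with a nuclear localization in human cells, varied most within C57BL/6N. Recovered reads were 363, 373, 237 and 514 in BALB/c replicates 1 to 4 and 63, 59, 2 and 3 in C57BL/6N replicates 1 to 4. The 5 reads of C57BL/6N replicates 3 and 4 together have an exact 95% Poisson interval of 1.62 to 11.7 reads. These were the C57BL/6N corneas low in stromal transcripts, and mean normalized reads of Slfn5 were 21.6-fold higher in the other pair. BALB/c replicate 2, which was also low in stromal transcripts, had 326 normalized reads of Slfn5 beside a mean of 344 in the other BALB/c corneas. The part of stromal tissue in the Slfn5 values was not tested beyond these comparisons.

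The rlog value of Slfn5 was 7.79 ± 0.33 (SD, n = 4) in BALB/c and 5.84 ± 0.59 (SD, n = 4) in C57BL/6N, with a difference of 1.95 (SE 0.28, limma adjusted p = 0.00161). Mean normalized reads were 10.5-fold higher in BALB/c, and 5.59-fold higher without the 3 corneas low in stromal transcripts. In that comparison, which called 3.35% of all genes, the rlog difference was 1.44 with an adjusted p of 0.0132 from limma, and without the 2 corneas with lens and pigment transcripts it was 1.77 with an adjusted p of 0.0451. With the stromal marker level as a covariate Slfn5 remained called. An antisense transcript, Slfn5os, shares 559 exon bases with Slfn5 and was below the filter on low values.

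Slfn8 (ENSMUSG00000035208, chr11:83002158-83020810, minus strand) and Slfn9 (ENSMUSG00000069793, chr11:82978390-82991830, minus strand) are close relatives of each other, with 92.6% identity over 3496 bases of their longest transcripts. Recovered reads of Slfn8 were 430, 426, 255 and 572 in BALB/c replicates 1 to 4 and 87, 59, 37 and 53 in C57BL/6N replicates 1 to 4. Slfn8 was at an rlog value of 8.11 ± 0.34 (SD, n = 4) in BALB/c and 6.60 ± 0.18 (SD, n = 4) in C57BL/6N. The rlog difference was 1.51 (SE 0.16, limma adjusted p = 0.000312), with 6.13-fold higher mean normalized reads in BALB/c. Without the 3 corneas low in stromal transcripts it was 1.40 with an adjusted p of 0.0186.

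Slfn9 was the member with the most reads in C57BL/6N and the smallest strain difference. Recovered reads were 1767, 2314, 1691 and 2188 in BALB/c replicates 1 to 4 and 709, 650, 394 and 712 in C57BL/6N replicates 1 to 4. The strains were separated, but by less than in the other members. The rlog difference was 1.07 (SE 0.11, limma adjusted p = 0.000273), from 10.6 ± 0.18 (SD, n = 4) in BALB/c and 9.56 ± 0.18 (SD, n = 4) in C57BL/6N. Mean normalized reads were 2.76-fold higher in BALB/c.

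With the exact two-sided permutation test over corneas, each of the 7 genes gave p = 0.0286, the smallest value that 4 against 4 corneas can give. With any single cornea left out, all 7 genes stayed called, and the highest adjusted p was 0.00748 for Slfn5. The rlog transformation compresses values more where reads are few, as they were in C57BL/6N. For Slfn1 the highest C57BL/6N cornea had 7.90-fold the normalized reads of the lowest, but rlog values spanned 0.20. In BALB/c the reads differed by 2.06-fold and the rlog values by 0.58. The adjusted p of Slfn1 was 6.31e-05 from limma on rlog values and 0.00176 from voom on the recovered reads. With voom 6 of the 7 genes were called, beside 5.61% of all genes. Slfn5 had a log2 ratio of 4.37 and an adjusted p of 0.0113 from voom.

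Levels between members were compared as normalized reads per kb of exon. They are means over all 4 corneas of a strain and are not given without the corneas that stood apart. For Slfn5 in C57BL/6N, mean normalized reads were 32.2 over all corneas and 61.6 in the pair not low in stromal transcripts. In BALB/c the order was Slfn2 (1025 ± 266, SD, n = 4), Slfn4 (505 ± 151), Slfn9 (304 ± 50.9), Slfn3 (127 ± 31.7), Slfn8 (93.8 ± 31.6), Slfn1 (72.1 ± 19.9) and Slfn5 (53.7 ± 18.2). Every neighbouring pair kept this order in all 4 BALB/c corneas, although only Slfn2 from Slfn4 and Slfn9 from Slfn3 were separated in range. In C57BL/6N the order was Slfn9 (110 ± 19.1, SD, n = 4), Slfn2 (79.7 ± 19.3), Slfn3 (24.9 ± 6.95), Slfn4 (18.2 ± 8.18), Slfn8 (15.3 ± 4.43), Slfn5 (5.09 ± 5.37) and Slfn1 (2.76 ± 2.04). Here Slfn2 from Slfn3 and Slfn8 from Slfn5 were separated in range, Slfn3 was above Slfn4 in only 2 of 4 corneas, and Slfn5 was above Slfn1 in only 2 of 4. Slfn2 thus ranked above 92.1% of 16015 tested protein-coding genes in BALB/c and above 43.3% in C57BL/6N, and Slfn4 above 82.5% and 26.1%.

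**Figure D2:**
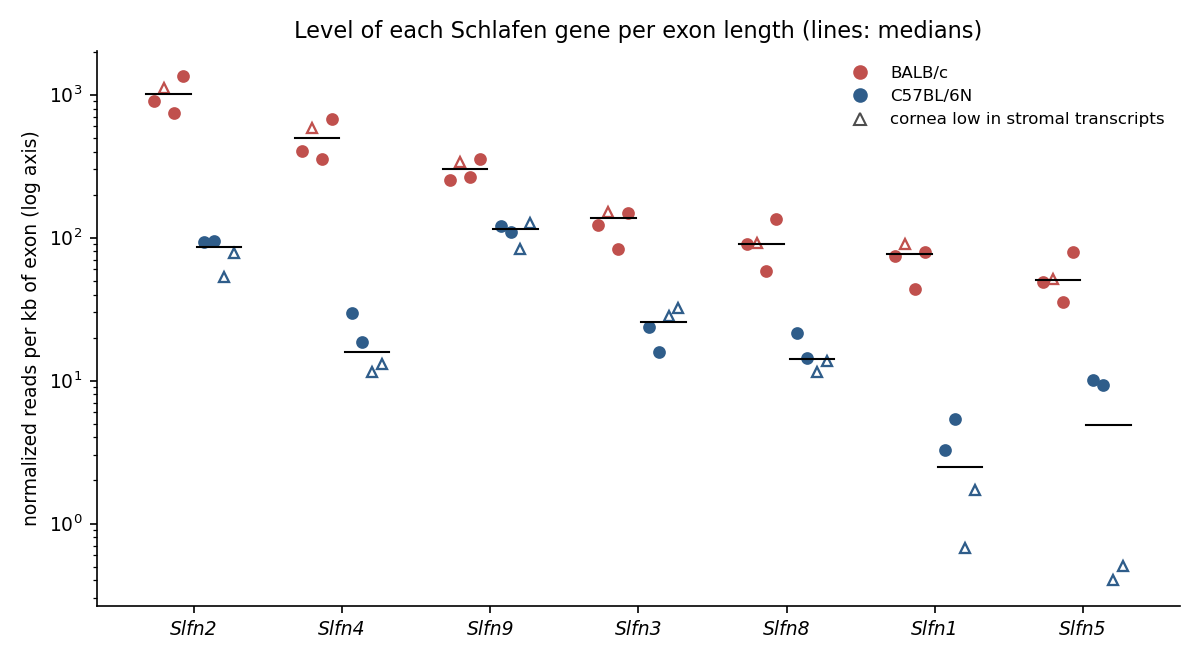
Normalized reads per kb of exon (log axis) of each Schlafen gene in each cornea, ordered by the BALB/c mean, with strain medians as lines and open triangles for the 3 corneas low in stromal transcripts. Slfn2 and Slfn4 lead in BALB/c with means of 1025 and 505, whereas Slfn9 leads in C57BL/6N with a mean of 110.

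The family as a whole gave 0.0138% to 0.0246% of all recovered reads in BALB/c and 0.00208% to 0.00338% in C57BL/6N. Summed normalized reads of the 7 genes were 6.51-fold higher in BALB/c (n = 4 corneas per strain). No test is given, because each of the 7 genes already separates the strains, which fixes the outcome for their sum. The make-up of this sum differed between the strains. Slfn4 gave 29.1% ± 1.73 (SD, n = 4) of the Schlafen reads in BALB/c and 6.75% ± 2.05 (SD, n = 4) in C57BL/6N, and Slfn2 gave 25.0% ± 0.69 and 12.6% ± 1.54. Slfn9 gave 27.1% ± 3.14 in BALB/c and 62.9% ± 4.12 in C57BL/6N. Slfn8 gave 5.57% ± 0.85 and 5.95% ± 0.90, and its strains overlapped.

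**Figure D3:**
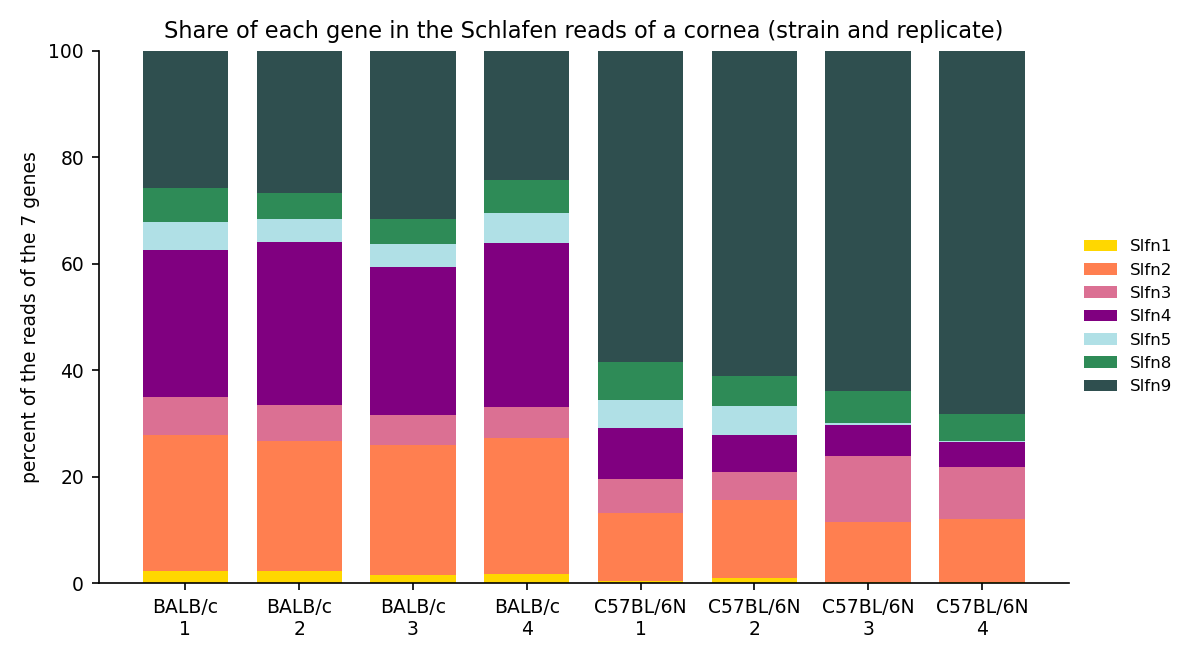
Percent of the summed normalized reads of the 7 genes (vertical axis) given by each gene, in 1 stacked bar per cornea. Slfn9 makes up 58.5% to 68.1% of the bar in the C57BL/6N corneas and 24.2% to 31.5% in the BALB/c corneas, where Slfn2 and Slfn4 take the larger part.

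The differences of the members were also set against each other within each cornea, as the log2 ratio of each other member to Slfn9 (0.5 reads added). Slfn9 was taken after the values had been seen and has the smallest strain difference, so that the direction of these ratios is fixed by this choice and they are given as a description, with no test. The ratio was higher in BALB/c by 3.37 for Slfn4, 3.33 for Slfn1, 3.02 for Slfn5, 2.21 for Slfn2 and 1.12 for Slfn8, with all 4 BALB/c corneas above all 4 C57BL/6N corneas. For Slfn3 the difference was 0.88, and the strains overlapped. Without the 3 corneas low in stromal transcripts it was 1.07 for Slfn5, beside 2.51 for Slfn1 and 2.95 for Slfn4.

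Within a strain the members tended to be high or low in the same corneas. BALB/c replicate 3 had the lowest normalized reads in 6 of the 7 genes, and BALB/c replicate 4 the highest in 5. C57BL/6N replicate 3 was the lowest in 6 of the 7 genes, while no single C57BL/6N cornea was the highest in more than 3. The highest BALB/c cornea exceeded the lowest by 1.40-fold for Slfn9 to 2.31-fold for Slfn8. In C57BL/6N this ratio was 1.51-fold for Slfn9, 7.90-fold for Slfn1 and 25.4-fold for Slfn5, where the lowest corneas held 1 to 3 reads.

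The 7 genes span 263.8 kb, 5 on the plus and 2 on the minus strand. Of the 10 flanking protein-coding genes, the 5 nearest tested on each side, limma called none, while 4 had an unadjusted p under 0.05. Voom on the recovered reads also called none of them. Among all 25402 genes tested limma called 5.74%, and 6009 had an unadjusted p under 0.05, so that 10 genes are too few to tell from this share. The median difference of the flanking genes was 0.05 on the rlog scale, which shrinks weakly counted genes. Unc45b, the flanking gene next to Slfn5, had recovered reads of 14, 6, 1 and 16 in BALB/c replicates 1 to 4. In C57BL/6N replicates 1 to 4 its reads were 0, 1, 0 and 0. Its rlog difference was 0.15 (limma adjusted p = 0.126). The flanking gene nearest to the threshold was Rffl, with an rlog difference of -0.35 and an adjusted p of 0.0181 from limma, lower in BALB/c. Of 15 further annotated genes inside the span, 7 were tested and 2 were called, both higher in BALB/c.

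One was Slfn10-ps, a transcribed pseudogene of the long forms with 92.2% identity to Slfn8 over 3530 bases. Its recovered reads were 461, 629, 310 and 450 in BALB/c replicates 1 to 4 and 177, 203, 173 and 197 in C57BL/6N replicates 1 to 4. The rlog difference was 0.65 (SE 0.12, limma adjusted p = 0.00701), smaller than in any member. This call was lost in 7 of the 8 fits that left out 1 cornea, all but that without BALB/c replicate 3, with adjusted p up to 0.0253, and without the corneas low in stromal (0.0368) or with lens and pigment transcripts (0.0995). It was also not called by limma with the replicate block (adjusted p = 0.0371) or by voom on the recovered reads (0.0118). The other was Gm20234, an antisense gene at Slfn2 whose exons share 0 bases with those of Slfn2. Its recovered reads were 4339, 4899, 3371 and 4548 in BALB/c replicates 1 to 4 and 382, 336, 240 and 211 in C57BL/6N replicates 1 to 4. The rlog difference was 2.66 (SE 0.12, limma adjusted p = 1.01e-06), and normalized reads per kb of exon were 5432 ± 791 (SD, n = 4) in BALB/c and 436 ± 96.8 (SD, n = 4) in C57BL/6N, above those of Slfn2 in both strains. The libraries were strand-specific, but whether the strand was used in counting was not given in the sources used here. If it was not used, reads of either gene from outside its own exons could have been counted for the other. This was not tested.

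**Figure D4:**
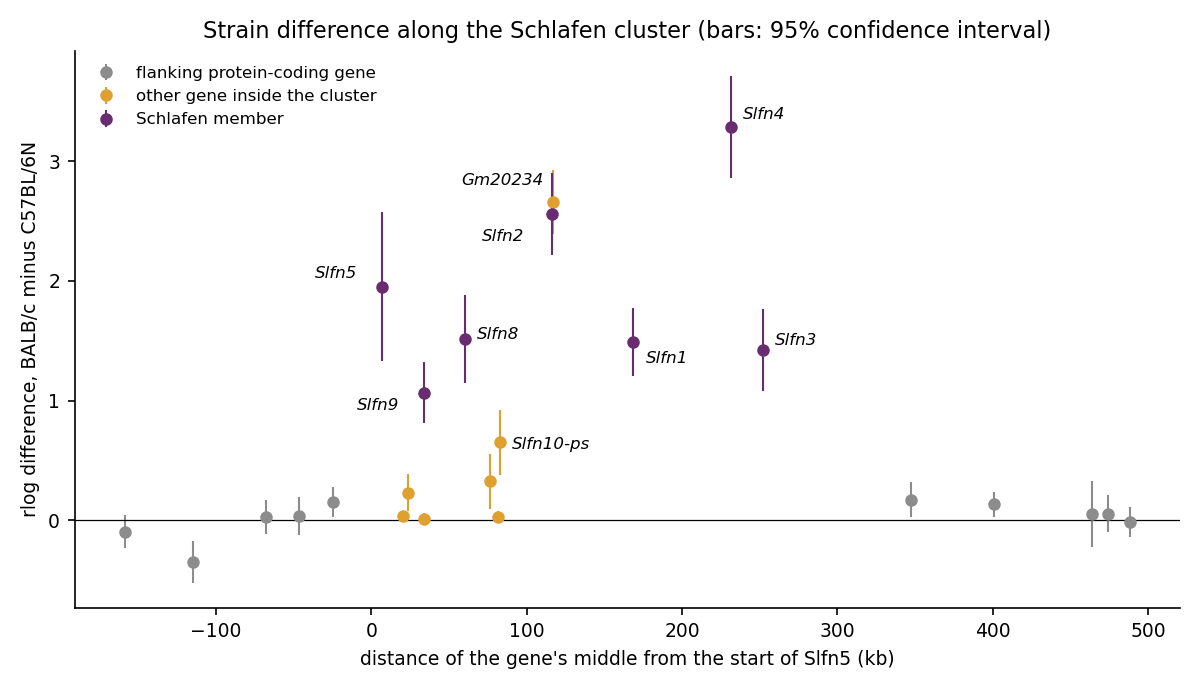
Rlog difference between the strains (BALB/c minus C57BL/6N, vertical axis, bars are 95% confidence intervals) against the distance from the start of Slfn5 in kb, for the members, other tested genes inside the cluster and the 10 flanking genes. Members lie between 1.07 and 3.28, and the flanking genes between -0.35 and 0.17. Differences of weakly counted genes, such as the flanking gene Unc45b, are shrunken on this scale.

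Among relatives outside this set, Slfn14 had 1 read in all corneas together and was not tested. Slfnl1, a Schlafen-like gene on chromosome 4, had an rlog difference of 0.14 (95% confidence interval -0.08 to 0.36, adjusted p = 0.427 from limma). Its recovered reads were 34, 37, 28 and 54 in BALB/c replicates 1 to 4 and 31, 13, 17 and 28 in C57BL/6N replicates 1 to 4, so that the strains overlapped. Since the genes of the cluster resemble each other, shared sequence was counted as words of 100 bases, the read length. The share of a member's words that also occurred in another Schlafen gene was 3.71% for Slfn9, 3.38% for Slfn8, 0.13% for Slfn2, 0.05% for Slfn4 and 0% for Slfn1, Slfn3 and Slfn5. Most of the shared words of Slfn8 and Slfn9 were those of Slfn10-ps. Outside the family, 2.92% of the words of Slfn3 and at most 0.24% of those of any other member occurred in another annotated gene. Reads from these stretches are uncertain in their assignment. Only exact matches on the same strand between annotated transcripts of GRCm38, which follows C57BL/6J, were counted. The 559 exon bases that Slfn5 shares with the antisense Slfn5os are therefore not in these shares. Stretches that differ by a few bases and the BALB/c sequence are not covered, so the uncertain share may be larger.

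Of 20 genes of interferon signalling, 6 rose in BALB/c and the other 14 were not called by limma. None of 6 receptor chains and 3 kinases was called by limma or by voom, although 2 had an unadjusted p under 0.05 in either. Over all genes tested limma called 5.74%, and 6009 of 25402 had an unadjusted p under 0.05. Counts over so few receptors and kinases cannot be told from this share. The largest increases of the list belonged to Usp18, which restrains the type I receptor (rlog difference 3.21, adjusted p = 1.55e-05), to Irf7, which drives interferon transcription (1.93, adjusted p = 1.31e-06), and to Irf9, a DNA-binding part of the interferon-activated transcription factor complex (1.59, adjusted p = 4.25e-06, all from limma). The median difference over the 20 genes was 0.05. Without the 3 corneas low in stromal transcripts 3 of the 20 were called.

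Of 30 interferon target genes, 26 were called by limma as higher in BALB/c, beside 2.83% of all genes tested. The median rlog difference of the 30 was 1.84. Voom on the recovered reads called 22 of them, limma with the replicate block 23, and the empirical null 0. The largest increases were those of Ifi44 (4.75, adjusted p = 9.8e-06), the antiviral enzyme Rsad2 (4.23, adjusted p = 8.33e-05) and Oas2, a sensor of double-stranded RNA (3.85, adjusted p = 1.8e-06, all from limma). Rsad2 was not called by voom on the recovered reads (adjusted p = 0.0122). Ifit2, Cxcl10, Dtx3l and Trim25 were not called. The mean rlog value of the 30 genes was 10.6 to 11.2 in BALB/c and 8.85 to 9.11 in C57BL/6N corneas. Among the BALB/c corneas this mean was highest in replicate 4 and lowest in replicate 3, as were most Schlafen members. Among the C57BL/6N corneas it was highest in replicate 1 (9.11) and lowest in replicate 4 (8.85), with replicate 3 at 8.87. Most Schlafen members were instead lowest in C57BL/6N replicate 3, and no single C57BL/6N cornea was the highest for most of them.

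**Figure D5:**
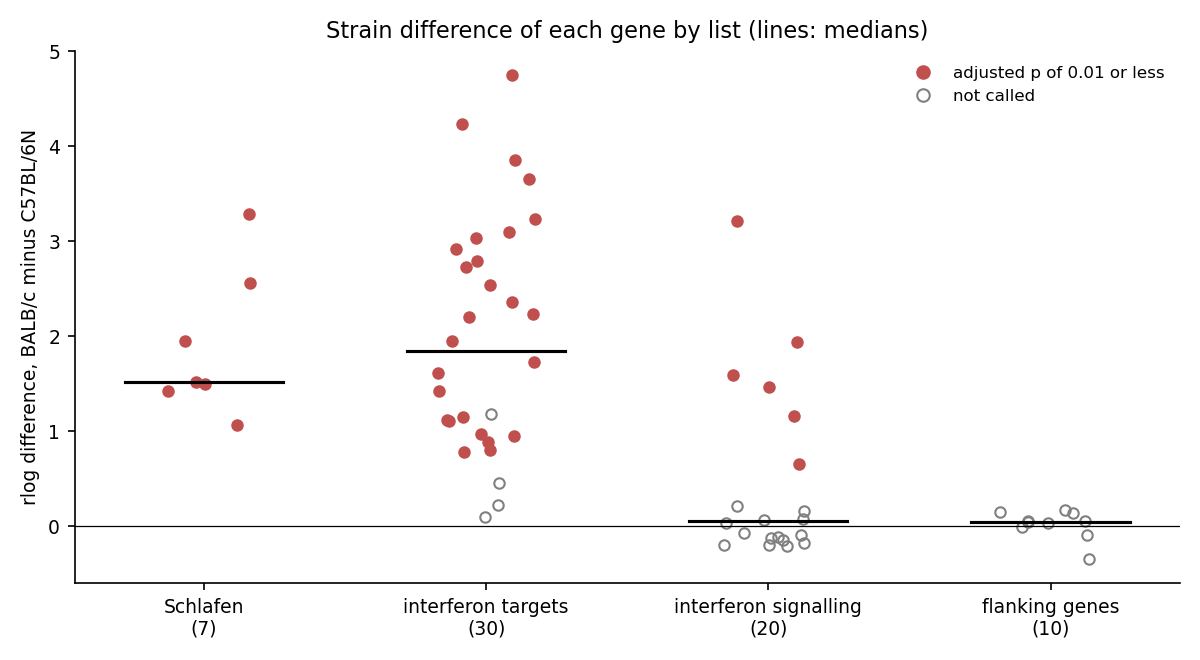
Rlog difference between the strains (BALB/c minus C57BL/6N) of each gene of the Schlafen family, of the interferon target and signalling lists and of the flanking genes, with filled points for genes with an adjusted p of 0.01 or less and lines for medians. The median is 1.51 for the Schlafen genes, 1.84 for interferon targets, 0.05 for signalling genes and 0.05 for the flanking genes.

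The genes most like each member were sought among 12689 other tested protein-coding genes by the Pearson correlation of rlog values over the 8 corneas, which is given as a description and is dominated by the strain difference. They were Igtp, Ifit1 and Oas1a for Slfn1 (r = 0.998, 0.996 and 0.996), Oas1g, Oas2 and Xaf1 for Slfn2 (r = 0.999, 0.998 and 0.998), and Apol9b, Usp18 and Tnfsf10 for Slfn4 (r = 0.998, 0.998 and 0.997). For Slfn3 they were 9930111J21Rik2, Phf11d and Herc6 (r = 0.997, 0.995 and 0.995), and for Slfn5 Helz2, Lgals9 and Lgals3bp (r = 0.995, 0.993 and 0.992). For Slfn8 they included Mx1 and Tlr3 (r = 0.994 and 0.991), and for Slfn9 Rnf114, Nmi and Eno1 (r = 0.993, 0.991 and 0.991). Usp18, Ifit1, Oas1a, Oas2, Xaf1, Mx1 and Herc6 belong to the interferon lists.

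Schlafen genes are also known from leukocytes, so leukocyte markers are given beside these results. Of 12 markers of macrophages and dendritic cells 1 was called, the protease Ctss, with an rlog difference of 1.06 (adjusted p = 0.000133 from limma). The summed normalized reads of this list were 3688 to 4281 in BALB/c and 3197 to 3654 in C57BL/6N corneas. The sum includes Ctss and does not stand for each marker. Itgam and Cd68, the markers with the highest mean rlog values, had rlog differences of -0.19 and 0.21 and were not called by limma. Of 6 markers of all leukocytes limma and voom called 0, with 0 at an unadjusted p under 0.05, and their sums were 96.1 to 293 in BALB/c and 33.9 to 297 in C57BL/6N. Of 8 neutrophil markers 3 were tested and 1 was called, S100a9, lower in BALB/c with an rlog difference of -1.54 (adjusted p = 3.95e-05 from limma). The other 2 tested, S100a8 and Csf3r, had rlog differences of 0.02 and 0.15 and were not called. Ly6g, Ngp, Cxcr2 and Mpo were listed at 0 in every cornea. Summed neutrophil marker reads were 14.0 to 40.7 in BALB/c and 114 to 181 in C57BL/6N. This sum includes S100a9 and does not stand for the other markers. Of 8 T cell markers 5 were tested, and limma and voom called 0, with 0 and 2 at an unadjusted p under 0.05. The list had 2 markers at 0, with sums of 15.4 to 62.0 in BALB/c and 25.4 to 73.3 in C57BL/6N. B and NK cell markers summed to at most 1.88 reads. Beside these counts, limma called 5.74% of all genes tested, and 6009 of 25402 had an unadjusted p under 0.05. Counts over so few markers cannot be told from this share. The part of leukocytes in the Schlafen differences was not tested.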

How the data were processed

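Libraries of total RNA from 4 BALB/c and 4 C57BL/6N corneas were read in pairs of 100 bases. The authors aligned reads to strain pseudo-genomes of GRCm38 with TopHat2 2.1.1, counted them on the union of exons of Ensembl genes with HTSeq 0.7.1, and deposited rlog values of DESeq2 1.30, a log2-scale measure that is normalized for library size. Columns were mapped to corneas by their labels, with 0 left unused. Of the 54532 genes, 23218 were at 0 throughout.

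The 25402 genes with a mean rlog of 0 or more entered limma 3.58.1 (R 4.3.3, lmFit and eBayes with a variance trend) and were called at an adjusted p of 0.01 or less, with Benjamini-Hochberg adjustment over all of them. Differences are BALB/c minus C57BL/6N. For a single value the exact two-sided permutation test of scipy 1.17.1 was used. Confidence intervals are at 95%. Symbols, positions and exon lengths came from GENCODE M21 (GRCm38), and promoters from RefSeq (GRCm38.p6).

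Read counts were recovered by inverting the rlog transformation from the deposited values alone. At a mean rlog of 0 to 10, 93.2% of values fell within 0.1 of a whole number, against 20% for random fractions. The share was 68.3% at 10 to 12, where Slfn9 and Gm20234 lie, and 26.3% at 12 to 20. Near the share of random fractions this check says little about single counts, and the summed reads of a cornea include such genes. Corneas of a strain differed by more than sampling noise (chi-square per gene 7.05 to 43.0). PCR reads are not independent molecules, so counting intervals cover counting error only.

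The members, gene lists and markers were chosen with earlier results of these data known, so that no count over them is independent evidence. Named by rule were the 7 members, their relatives, the 3 largest called increases of each interferon list, receptors and kinases by count, neighbours by count, and the 3 genes most like each member, of which 1 gene is not reported here. Rffl, Unc45b, Slfn5os, Ctss, Itgam, Cd68, S100a9, S100a8, Csf3r, the uncalled interferon targets and the markers at 0 were named after their values were seen. The alternatives were no variance trend, a robust prior, other filters, median centring, quantile normalization, an empirical null, a replicate block, a stromal covariate, leaving out each cornea, an adjusted p of 0.05 and voom on recovered reads. Leaving out the corneas that stood apart, and the ratios to Slfn9, were added after seeing the data.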

Additional observations from a re-analysis of the deposited data

How the results depend on the processing

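All 7 Schlafen genes kept their direction under all 21 alternatives, and in 134 of 147 cases their call. Calls were lost as follows, and the cause was not tested. The limma p-values were recalibrated to an empirical null with a standard deviation of 1.67. Then 0 of 7 Schlafen genes, 0 interferon signalling genes, 0 interferon targets and 0 of 25402 genes were called. After this recalibration 1732 genes, with all 7 members among them, had an unadjusted p under 0.05. The rlog differences stay the same under this setting (Slfn1 1.49, Slfn2 2.56, Slfn3 1.43, Slfn4 3.28, Slfn5 1.95, Slfn8 1.51, Slfn9 1.07), and their recalibrated adjusted p lay between 0.219 and 0.525. Slfn5 was not called with the replicate block (1.95, adjusted p = 0.0117), with voom on the recovered reads (log2 ratio 4.37, adjusted p = 0.0113), without the 3 corneas low in stromal transcripts (1.44) or without the 2 with lens and pigment transcripts (1.77). Slfn8 was not called without the former (1.40) and Slfn3 not without the latter (1.33).

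Over all genes, 958 were called with median centring (413 higher and 545 lower, against 718 and 740), 2410 with the stromal covariate, 2842 at an adjusted p of 0.05, 852 without the 3 corneas low in stromal transcripts and 447 without the 2 with lens and pigment transcripts, against 1458. With single corneas left out, 953 to 1163 genes were called, all 7 Schlafen genes each time, 24 to 26 interferon targets and 5 to 6 signalling genes, and 953 without C57BL/6N replicate 4. Without the 3 corneas low in stromal transcripts the signalling list had 3 calls and the target list 23, and without the 2 with lens and pigment transcripts 4 and 20, against 6 and 26. Of the flanking genes 1, Rffl, was called as lower with the stromal covariate and at an adjusted p of 0.05.

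The labels state no link between corneas with the same replicate number in the strains. The correlation of same-numbered corneas' deviations from their strain mean over all genes tested was 0.31, -0.53, -0.20 and -0.45 for numbers 1 to 4. BALB/c replicate 2 correlated best with C57BL/6N replicate 4 (0.67), and both were low in stromal transcripts. These correlations therefore cannot decide whether the numbers pair the samples. With the number as a replicate block 554 genes were called, and all Schlafen genes but Slfn5 stayed called. Depth limits Slfn1 and Slfn5 most, with 1 to 10 reads and 2 to 63 reads per C57BL/6N cornea.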
